A study of Mus musculus with 2 samples.

Results

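Integrins, laminins and collagens are the cell surface receptors and the matrix proteins through which an epithelium is anchored to the tissue beneath it. The genes were chosen by symbol: collagen chains (Col, a number, a, a number), laminin chains (Lama, Lamb or Lamc with a number) and symbols that begin with Itga or Itgb. This gave 85 of the 17305 genes measured, among them 44 collagen chains, 10 laminin chains and 26 integrin chains of 3 lists. A further 5 symbols fit the rule without being in those lists. Itgb2l is a gene related to the leukocyte beta chain Itgb2, Itgb1bp1 and Itgb1bp2 encode proteins that bind the Itgb1 tail, Itgb3bp encodes a centromere protein, and Itgbl1 encodes a secreted protein.

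The samples were 1 array of small intestinal epithelium grafted onto the colon and 1 array of control colonic epithelium. Donor epithelium came from EGFP-transgenic mice of C57BL6 background, was grown in vitro for 7 days as organoids (epithelial cultures that hold stem cells) and was placed in the colonic lumen of C57BL6 recipients. The graft was taken at 4 weeks after transplantation, and the control was normal colonic epithelium of a C57BL6 mouse. Both epithelia were cut out by laser microdissection, sections of each specimen were pooled, and 1 graft and 1 colon sample were chosen for their RNA integrity. Neither ages nor an ungrafted small intestine are among the labels used here, so tissue of origin and grafting cannot be told apart.

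Epithelial cells stand on the basement membrane, a sheet of laminin and type IV collagen networks. Laminins are trimers of an alpha, a beta and a gamma chain, and integrins are pairs of an alpha and a beta chain that bind them. In intestinal epithelium the pair of Itga6 and Itgb4 products binds laminin in hemidesmosomes, while pairs that contain the Itgb1 product bind laminins and collagens. Fibrillar collagens and type VI collagen belong mostly to the stroma and are made mainly by fibroblasts.

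Values are log2 levels as deposited, and every difference is the graft value minus the colon value. With 1 array a group no difference has a replicate check and no p-value can be given. The one error available comes from genes with several probe sets. The graft minus colon values of 2 probe sets of a gene differed from each other with an SD of 0.48 over 586 genes, called the between-probe-set SD here, which corresponds to 0.34 for a single probe set. Variation between animals is not in it. A level was called measurable when the gene's higher value was at least 5.48, which is the median over all genes and both arrays. This is a cutoff on brightness and no limit of detection. Both probe sets of each of the 586 genes reached it, so the between-probe-set SD does not describe dimmer genes. In bulk samples fewer cells of a type and less RNA per cell cannot be told apart.

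The arrays matched their labels at markers of the gut region. All 5 small intestinal enterocyte genes on the list, such as Fabp1 (difference 5.67), exceeded 2-fold in favour of the graft, as did all 4 Paneth cell genes. All 4 colonic enterocyte genes, such as Car1 (-7.23), were at least 2-fold lower. Of all measurable genes 3.55% were 2-fold higher and 5.68% 2-fold lower. The 8 general epithelial markers had levels of 9.42 to 11.98 on the graft array and 8.93 to 11.74 on the colon array. The furthest apart were Krt18 (0.91), Vil1 (0.68) and Krt19 (0.54). Of the 8 markers, 6 were higher in the graft and 2 lower, Epcam (-0.37) and Cdh1 (-0.30).

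All integrin, laminin and collagen genes differed less than these enterocyte and Paneth cell markers, which is no measure against genes at large. A measurable level was found for 35 of the 85 genes (41.2%), beside 54.3% of all genes. None of the 35 was 2-fold higher in the graft, where 3.55% of all measurable genes were, and none was 2-fold lower, where 5.68% were. Of 35 genes such shares make only a few, so neither count is far from its share. At 1.5-fold, 1 gene was higher (background 8.42%) and 2 were lower (background 14.6%). The differences of 7 of the 35 exceeded the between-probe-set SD of 0.48, beside 30.0% of all measurable genes. At the 0.34 of a single probe set 10 of the 35 did, with Lamc1, Col6a1 and Col8a1 in addition, beside 43.4% of all measurable genes. For 7 of the 35 (Col4a1, Col6a3, Col6a4, Col6a5, Col8a1, Itga1 and Itgb3bp) the lower value was under 5.48, so that their differences rest on a dim value and may be understated. Over all 85 genes the median difference was 0.00 and the median absolute difference 0.12, beside 0.00 and 0.14 over all 17305. Over the 35 measurable ones these were 0.00 and 0.17, beside -0.05 and 0.28 over all 9392 measurable genes. The other 50 genes stayed below 5.48 on both arrays, with differences from -0.47 for Lamb2 to 0.41 for Itgb8.

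**Figure D1:**
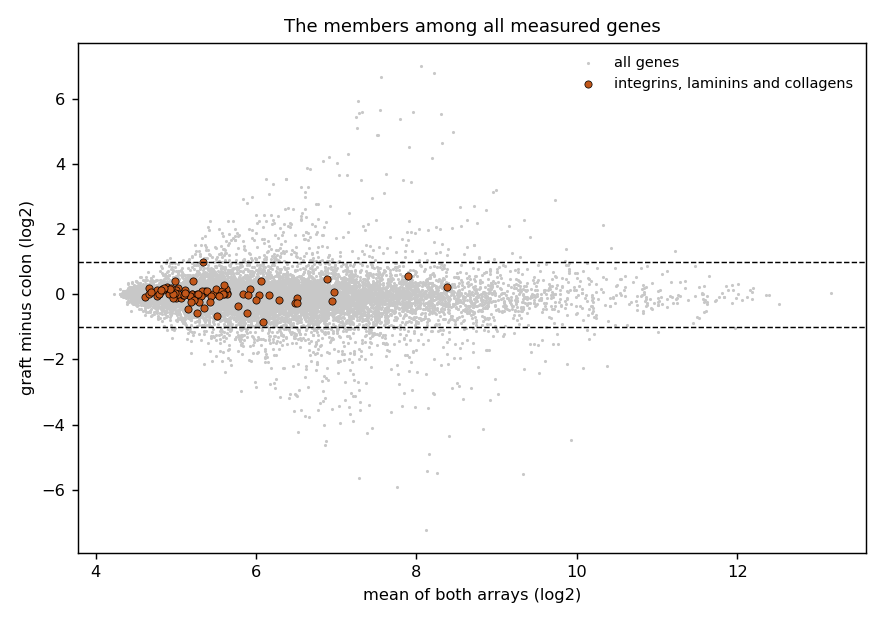
Difference between the arrays (graft minus colon, log2, vertical axis) against the mean of both arrays (log2, horizontal axis) for all 17305 genes in grey and the 85 integrin, laminin and collagen genes in orange; dashed lines mark 2-fold. All orange points lie between the dashed lines, with Col6a5 just under the upper one at 0.997.

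Basement membrane genes were compared with stromal collagens, which belong to the connective tissue beneath the epithelium. The first list holds basement membrane genes in general, with Lama2 and Lama4 of muscle and vessels among them. The contrast therefore does not separate epithelial from stromal expression. The 20 basement membrane genes had a median difference of -0.01 and the 15 stromal collagens one of 0.00, so the contrast between the groups was -0.01. The median over all genes was 0.00. Most genes of the first group were dim. Over the 9 measurable basement membrane genes the median was -0.05 and over the 8 measurable stromal collagens 0.06, a contrast of -0.12. The median over all measurable genes was -0.05, the same as that of the measurable basement membrane genes. Within the basement membrane group the laminin chains and the collagens differed in their values. Laminin chains had a median of -0.20 (-0.37 over the 5 measurable ones) and basement membrane collagens one of 0.02.

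Laminin chains mostly had lower values in the graft, by less than 2-fold. Of the 10 chains, 8 were lower, 1 was higher and 1 had equal values, whereas 7597 of all 17305 genes were lower. The clearest was Lamb3, the beta chain of the hemidesmosomal laminin, at 5.66 on the graft array and 6.52 on the colon array, 1.81-fold lower. Lama3, which encodes its alpha chain, was at 5.60 and 6.16, 1.48-fold lower. Both differences, -0.86 and -0.56, exceeded the between-probe-set SD. Lamc1, the gamma chain of most other laminins, stood at 5.59 on the graft array and 5.96 on the colon array. Lamb1, a beta chain that pairs with it, had values of 5.92 and 6.09. For Lama5, the main alpha chain of the mature gut basement membrane, the values of 5.52 and 5.57 were nearly the same. The differences of these 3 genes, -0.37, -0.16 and -0.05, were smaller than the between-probe-set SD, and that of Lamc1 was larger than the 0.34 of a single probe set. Lamb2 went the same way below the measurable level, at 4.91 and 5.38. Lama2 and Lama4, alpha chains of muscle and vessels, had differences of -0.17 and -0.23, Lama1 one of 0.14, and Lamc3 was listed at 5.28 on both arrays.

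Collagens of the basement membrane showed almost no difference. Col4a1 and Col4a2, which encode the chains of the common type IV network, had graft values of 5.58 and 5.62 and colon values of 5.42 and 5.52. Col7a1, whose product forms anchoring fibrils, was at 5.61 and 5.59. Col15a1, a collagen at the border of basement membrane and stroma, was at 5.56 and 5.50. The remaining 6 of this group, Col4a3 to Col4a6, Col17a1 of the hemidesmosome and Col18a1, which carries endostatin, did not reach the measurable level. All 10 differences lay between -0.04 and 0.16. Those of the 4 measurable genes were inside the between-probe-set SD, which does not describe the 6 dim ones.

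Col4a1 and Col4a2 are neighbours in head-to-head orientation, and their differences, 0.16 and 0.10, had the same sign and lay inside the between-probe-set SD. Their annotated starts lie 21 bases apart on opposite strands, so that their promoter windows share 78 bases. The window of Col4a2 is shown because it holds the starts of both genes; capitals mark the shared bases (RefSeq, GRCm38.p6, chr8:11312555-11312854, plus strand, 5′ to 3′).
Col4a2: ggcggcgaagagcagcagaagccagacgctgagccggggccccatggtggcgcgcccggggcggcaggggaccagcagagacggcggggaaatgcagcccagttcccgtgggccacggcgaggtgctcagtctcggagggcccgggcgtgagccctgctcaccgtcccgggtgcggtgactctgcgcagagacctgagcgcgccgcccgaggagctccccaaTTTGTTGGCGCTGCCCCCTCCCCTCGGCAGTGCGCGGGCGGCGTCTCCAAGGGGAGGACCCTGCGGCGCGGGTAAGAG
The starts of Col4a6 and Col4a5 also lie on opposite strands, 1343 bases apart. Unlike those of the first pair, these starts leave a gap between the genes, and the windows share 0 bases. The differences of Col4a6 and Col4a5 were 0.02 and -0.02, both from values below the measurable level.

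Stromal collagens were measurable for 8 of 15 genes, with differences from -0.42 for Col8a1 to 0.997 for Col6a5 over the whole list. Col1a1 and Col1a2, the chains of the main fibrillar collagen, were at 6.15 and 6.0 on the graft array and at 6.17 and 5.85 on the colon array. Col3a1, the fibrillar collagen of soft tissue, was at 6.46 and 6.56. These 3 genes thus differed by -0.02, 0.15 and -0.10. The 7 dim genes of the group, such as Col5a1, Col12a1 and Col14a1, had differences between -0.07 and 0.12 below the measurable level or, for Col5a2 and Col5a3, equal values.

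The stromal list also held 5 chains of type VI collagen and Col8a1. Type VI collagen forms beaded filaments next to basement membranes, and its chains had differences of both signs. Col6a1 had values of 6.26 on the graft array and 5.85 on the colon array, and Col6a3 of 5.75 and 5.46. Col6a2, the remaining common chain, was at 6.03 and 6.06. Col6a5, an additional chain, was the member with the highest positive difference, at 5.84 against 4.84, which is 0.997 on the log2 scale and just under 2-fold. Its second probe set gave 5.54 and 4.97, a difference of 0.58 in the same direction. On the colon array both probe sets of Col6a5 were below the measurable level, and with quantile normalization of the arrays the difference was 1.001, past 2-fold. Col6a4, a related chain outside the list, had the opposite sign at 5.31 and 5.54, and Col6a6 was at 5.27 and 5.34. Col8a1, a short-chain collagen of vessels, was at 5.15 on the graft array and 5.56 on the colon array.

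Among the other 19 collagens, 7 were measurable and their differences were no larger than 0.23 in either direction. Col27a1, a fibrillar collagen of cartilage, had values of 5.71 and 5.54. Col11a2, another cartilage collagen, was at 5.66 and 5.62, and Col26a1 at 5.65 and 5.62. Col9a3 of cartilage was at 5.59 on both arrays, while Col9a2 (5.84) and Col22a1 (5.52) were listed with exactly equal values.

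**Figure D2:**
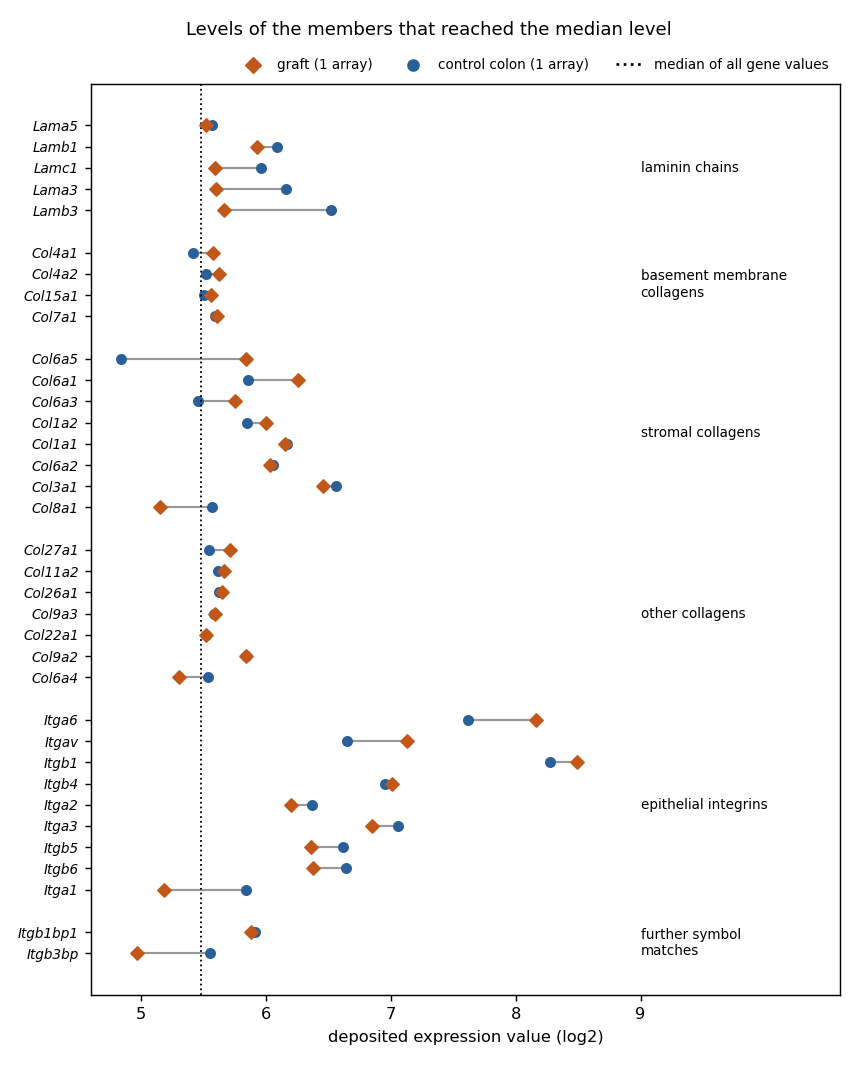
Deposited log2 value (horizontal axis) on the graft array (orange diamonds) and the control colon array (blue circles) for the 35 genes with a measurable level (at least 5.48, dotted line), grouped by class. The longest bars are those of Col6a5, higher in the graft at 5.84 against 4.84, and Lamb3, lower at 5.66 against 6.52.

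Integrin chains of gut epithelium were measurable for 9 of 10 genes. Of these, 4 were higher and 5 lower in the graft, with none at 2-fold. Of all 9392 measurable genes 3908 were higher and 5075 lower, and 3.55% were 2-fold higher and 5.68% 2-fold lower. Itga6, the laminin-binding alpha chain, was at 8.17 on the graft array and 7.62 on the colon array, 1.46-fold higher. Its hemidesmosomal partner Itgb4 had values of 7.01 and 6.95. Itgb1, the beta chain shared by most matrix receptors, was at 8.49 and 8.28. Of these laminin receptor chains only Itga6, with a difference of 0.55, exceeded the between-probe-set SD. Itga3, a further laminin-binding alpha chain, was lower in the graft, at 6.85 and 7.06.

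Of the collagen-binding alpha chains, Itga1 and Itga2 were lower in the graft, while Itga10 (0.20) and Itga11 (0.18) were below the measurable level. Itga1, which in the gut is known from crypt epithelium, muscle and lymphocytes, was at 5.18 and 5.84, a difference of -0.66 that exceeded the between-probe-set SD and rests on a dim graft value. Itga2 stood at 6.20 and 6.37, a difference of -0.17. The chains of receptors that bind fibronectin, vitronectin and latent TGF-beta went in both directions. Itgav, the common alpha chain, was at 7.13 on the graft array and 6.64 on the colon array, 1.40-fold higher. Its beta partners Itgb5 and Itgb6 were lower, at 6.36 against 6.62 and at 6.38 against 6.64. Itgb8, another partner, was at 5.19 and 4.78 below the measurable level.

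Promoter windows are shown for the 3 genes whose difference reached 1.5-fold, Lamb3 and Itga1 (lower) and Col6a5 (higher). Each runs from 250 bases before to 50 bases after a RefSeq start, is printed 5′ to 3′ on the gene's strand, and has the 50 bases from the start on in capitals. For Lamb3 the upstream one of 2 listed starts was taken.
Lamb3, GRCm38.p6 chr1:193301744-193302043, plus strand: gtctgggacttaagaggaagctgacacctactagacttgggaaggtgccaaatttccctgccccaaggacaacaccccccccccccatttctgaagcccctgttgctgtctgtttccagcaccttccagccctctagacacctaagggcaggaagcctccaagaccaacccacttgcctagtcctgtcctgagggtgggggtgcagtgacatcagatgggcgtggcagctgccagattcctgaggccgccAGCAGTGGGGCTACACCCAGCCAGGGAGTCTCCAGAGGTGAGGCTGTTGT
Itga1, GRCm38.p6 chr13:115101915-115102214, minus strand: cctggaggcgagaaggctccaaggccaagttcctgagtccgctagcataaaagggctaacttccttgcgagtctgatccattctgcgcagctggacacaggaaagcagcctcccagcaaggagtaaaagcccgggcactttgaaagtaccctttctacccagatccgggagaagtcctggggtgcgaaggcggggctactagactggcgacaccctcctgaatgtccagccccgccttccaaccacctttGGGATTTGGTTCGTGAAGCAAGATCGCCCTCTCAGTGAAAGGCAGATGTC
Col6a5, GRCm38.p6 chr9:105960594-105960893, minus strand: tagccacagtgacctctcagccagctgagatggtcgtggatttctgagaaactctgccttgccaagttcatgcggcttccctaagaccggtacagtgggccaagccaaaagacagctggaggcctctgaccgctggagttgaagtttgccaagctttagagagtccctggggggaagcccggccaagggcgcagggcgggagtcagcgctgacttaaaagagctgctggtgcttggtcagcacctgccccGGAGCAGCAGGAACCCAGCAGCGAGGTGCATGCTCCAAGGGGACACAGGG
The windows were searched on both strands for the letters TGACTCA (AP-1), GGGCGG (GC box), CCAAT and TATAAA, which do not overlap in these windows. The window of Col6a5 holds 1 GC box, and those of Lamb3 and Itga1 hold 0 matches to any of the 4 motifs. Windows were listed for 62 of the 85 genes, 68 in all. A GC box was found in 36 of the 68 (52.9%), beside 35.7% of all 32851 windows. It was present in 9 of 16 basement membrane windows and 9 of 12 stromal collagen windows. The AP-1 letters were found in 3 of 68 windows (4.41%) against 5.20% of all, CCAAT in 18 (26.5%) against 37.4%, and TATAAA in 5 (7.35%) against 13.6%.

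The integrin chains of leukocytes lay below the measurable level on both arrays, and whether they were detected was not assessed. Their 8 genes lay between 4.82 and 5.04 in the graft and between 4.71 and 4.97 in the colon. All 8 differences were above 0, from 0.02 to 0.22, with a median of 0.15. The between-probe-set SD does not describe genes this dim. Of all 17305 genes, 7528 had a difference above 0 and 7597 one below. The 9392 measurable ones among them had 3908 above and 5075 below. Genes that were not measurable, like these 8 chains, thus had more differences above 0 than below. Itgae and Itgb7, whose products form the receptor of intraepithelial lymphocytes for E-cadherin, had differences of 0.13 and 0.19. Itgal, Itgam, Itgax and the shared beta chain Itgb2 had values of 0.17, 0.22, 0.12 and 0.19. The general leukocyte list was measurable for 5 of 7 genes, with a summed linear signal of 464 in the graft and 347 in the colon. Of the 7 genes, 6 were higher in the graft and 1 was lower. Ptprc and Tyrobp were both higher by 0.78, Fcer1g by 0.75 and Cd52 by 0.35. Laptm5 (0.11) was close to equal, and Cd53 (-0.36), below the measurable level, was the lower one. The T cell list had 5 of 9 genes higher and 3 lower, beside 7528 and 7597 of all 17305 genes. It had a median of 0.09 and summed to 337 and 332. Its 2 measurable genes were Ccl5 (-0.21) and Cd7 (-0.30). The part of these cells in the integrin values was not tested.

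The other 8 integrin chains, known from stroma, muscle and platelets, were also below the measurable level. Their differences ran from -0.25 for Itga5, the fibronectin receptor chain, to 0.20 for Itga10, with a median of 0.06. Of the 5 further symbols, Itgb3bp was at 4.97 on the graft array and 5.55 on the colon array, a difference of -0.58, and Itgb1bp1 was at 5.88 and 5.91. Itgb2l was at 5.42 and 5.02, Itgb1bp2 at 4.79 on both arrays, and Itgbl1 at 4.74 and 4.65.

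**Figure D3:**
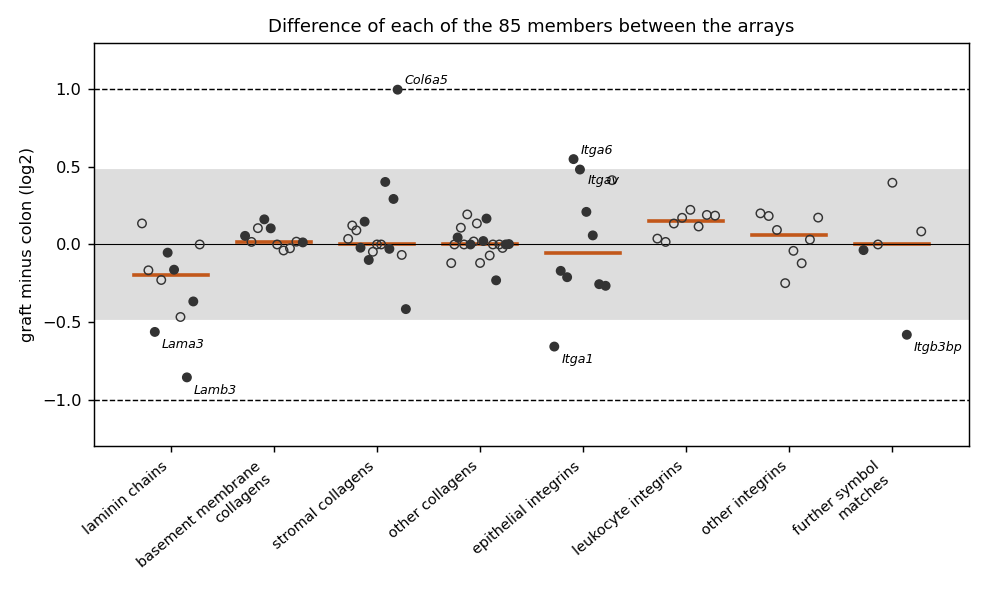
Difference between graft and colon (log2, vertical axis) of each of the 85 genes by class; filled points reached the median level, open points did not, orange bars are class medians, the grey band is the between-probe-set SD of 0.48 and dashed lines mark 2-fold. The 7 named genes lie outside the band, and laminin chains have the lowest class median, -0.20. The band comes from measurable genes and does not describe the open points.

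Genes that work with these receptors and matrix proteins were taken from 4 lists. Of 22 hemidesmosome and adhesion plaque genes, 17 were measurable. None of the 17 was 2-fold higher, beside 3.55% of all measurable genes, and 2 were 2-fold lower, beside 5.68%. The median over all 22 was -0.07. The largest difference was that of Tns4, a tensin that binds integrin beta tails, at 7.22 on the graft array and 9.40 on the colon array, 4.51-fold lower. Dst, which encodes a plakin of the hemidesmosome, was 2.02-fold lower at 5.56 against 6.57. Tns3, another tensin, had the highest positive difference, 0.74. Hemidesmosomal genes had differences of both signs. Besides Dst, the tetraspanin gene Cd151 had one of -0.64 and Lad1, an anchoring filament protein, one of -0.47. Plec, the other plakin, had 0.04, Itga6 0.55, Itgb4 0.06 and Col17a1 0.02. The genes in these sentences on the hemidesmosome were chosen with their values known.

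Of 13 other basement membrane genes, 6 were measurable, and the median over the list was 0.02. None of the 6 reached 2-fold, beside 3.55% of all measurable genes higher and 5.68% lower. Sparc, a collagen-binding matrix protein, had a difference of 0.49, Agrn, which encodes agrin, one of 0.23, and the perlecan gene Hspg2 one of 0.20. Collagen processing genes were measurable for 7 of 17 and had a median of 0.00. Pcolce, an enhancer of procollagen cleavage, was at 5.32 on the graft array and 6.35 on the colon array, a difference of -1.03 that rests on a dim graft value. P4hb, a subunit of the prolyl hydroxylase and a general folding enzyme, had a difference of 0.71, and Mia3, needed for export of bulky collagens, one of -0.49.

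Ligands of integrins other than laminins and collagens included the largest positive difference of the partner genes. Fn1, which encodes fibronectin, was at 8.38 on the graft array and 6.28 on the colon array, 4.31-fold higher. Vcam1, a ligand of leukocyte integrins, was at 5.62 and 4.78, a difference of 0.84. Cdh1, which encodes E-cadherin, had a difference of -0.30. Of the 7 genes of this list, 3 were measurable, and 1 of these was 2-fold higher, beside 3.55% of all measurable genes.

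Markers of stromal cells were compared on the same arrays, since dissected epithelium can carry adjacent tissue. The fibroblast list was measurable for 8 of 10 genes, and 7 of these were lower in the graft, beside 5075 of all 9392 measurable genes. The list had a summed linear signal of 611 in the graft and 1003 in the colon. Its largest differences were those of Postn (-2.09), Lum (-1.76) and Dcn (-0.62), all matrix proteins of fibroblasts, and Dcn itself stood at 7.37 and 7.99. The fibrillar collagens Col1a1, Col1a2 and Col3a1, with differences from -0.10 to 0.15, lay closer to 0 than Postn, Lum and Dcn, as did other genes of the list such as Vim (-0.22), Thy1 (-0.05) and Fbln1 (0.20). The fibroblast median was -0.27. Smooth muscle genes were measurable for 5 of 6 and summed to 333 and 406, with differences of -0.60 for Acta2, -0.37 for Myh11, -0.36 for Cnn1 and 0.22 for Actg2. Endothelial genes were lower in the graft for 5 of 7, beside 7597 of all 17305 genes, with a median of -0.07. The list summed to 251 and 216, with Egfl7 (1.23), its only measurable gene, on the other side at 6.15 against 4.92. Macrophage and dendritic cell genes were measurable for 5 of 7 and summed to 445 and 407, with differences of 0.73 for C1qb, 0.55 for Cd68, 0.39 for C1qa, -0.05 for C1qc and -0.12 for Lyz2. The 2 glia and neuron genes measured stayed below the measurable level. The part of any of these cells in the laminin, collagen and integrin values was not tested.

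**Figure D4:**
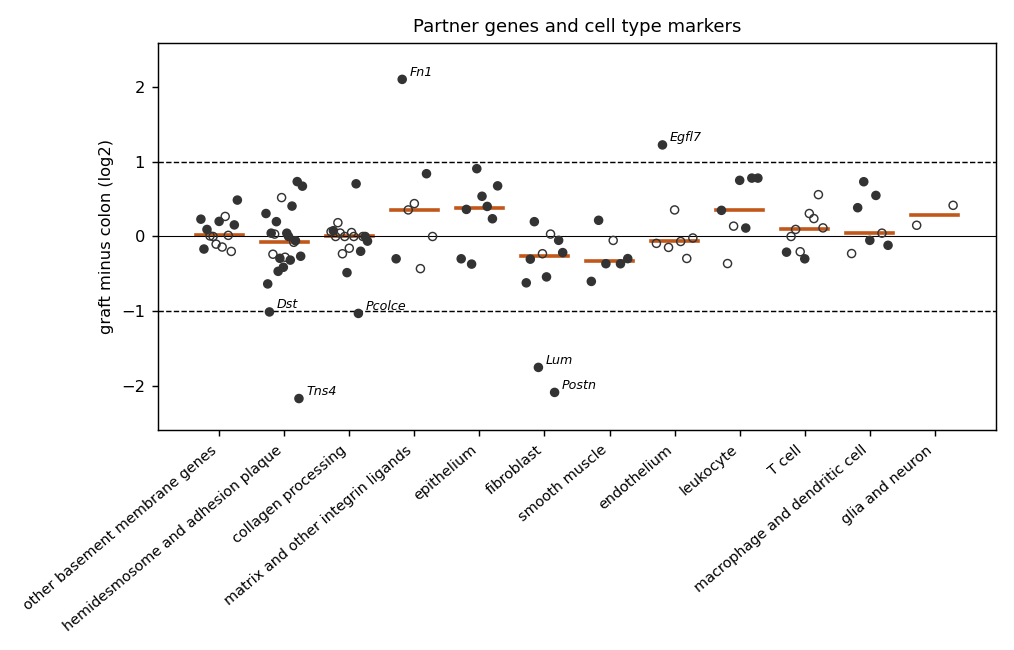
Difference between graft and colon (log2, vertical axis) of partner genes and cell type markers by list; filled points reached the median level, open points did not, orange bars are list medians and dashed lines mark 2-fold. Fn1 (2.11) and Egfl7 (1.23) lie above the dashed lines, and Tns4 (-2.17), Postn (-2.09), Lum (-1.76), Pcolce (-1.03) and Dst (-1.01) lie below.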

How the data were processed

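The table the authors deposited gives log2 levels of 24074 probe sets on both arrays; the software and normalization used for it were not given in the sources used here. That the unit is log2 was inferred from the range of 4.19 to 13.37 (graft) and 4.22 to 13.46 (colon). Per the labels' protocols, whole-transcriptome amplification started from 4.33 ng of RNA, a step that can distort single transcripts. Through the platform's annotation 18904 probe sets had 1 gene symbol, 1330 several and 3840 none, and only the first kind was used. Each gene is represented by its brightest probe set; 82 of the 85 genes had 1 probe set. All 85 were found by Entrez identifier in the RefSeq table of GRCm38.p6, and 0 symbols needed updating.

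Differences were taken without further normalization, in Python 3.11.15 with pandas 2.3.3, and counting was tested on simulated data. The simulated differences were larger than that of any gene of the rule, so counting of small differences was not tested. No test of the condition is possible with 1 array a group, and the number of arrays limits the precision. Medians cover all measured genes of a list unless stated. The text names each gene of the rule that reached the median level or was 1.5-fold apart, and from each other list up to 3 measurable genes with the largest differences and the brightest. Other named genes were picked with their values known. The genes and lists were chosen with earlier results of these data known. Alternatives covered normalization, centring, probe set choice, low-value filters, a floor and the fold.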

Additional observations from a re-analysis of the deposited data

How the results depend on the processing

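Of 59 values of the counts and medians recomputed under 10 alternative settings, 56 stayed within the spread that probe set error gives a median, or within 1.5 times for a count, and 3 moved. The probe set error comes from measurable genes. It is no yardstick for lists made up mostly or wholly of dim genes, such as the leukocyte integrins. Part of the 56 could not move, so their number does not measure robustness. With 0 genes at 2-fold, a 4-fold threshold or a stricter low-value filter can only give 0. Centring moved the differences of the 35 named genes by at most 0.006, and averaging probe sets could change the values of only 3 genes. With quantile normalization of both arrays 1 gene, Col6a5, was 2-fold higher in the graft in place of 0. With a 1.5-fold threshold 1 gene was higher and 2 were lower in place of 0 and 0. Across the alternatives the basement membrane median ran from -0.05 to -0.01, the stromal collagen median from -0.10 to 0.06 and the contrast between them from -0.12 to -0.01. The lowest stromal value came from 1 gene, Col3a1. The median of epithelial integrins ran from -0.17 to 0.06, that of leukocyte integrins from 0.14 to 0.15 and that of other integrins from 0.03 to 0.06, so the first had no settled sign. Among the 35 named genes quantile normalization moved a difference by at most 0.08 and changed the sign of 2, none larger than 0.03 as deposited. With the 75th percentile as filter no basement membrane gene was left, so the contrast could not be computed. No paired analysis was possible because each group has 1 array. Signal and background cannot be told apart at low levels, so differences of the 50 genes dim on both arrays and the 7 dim on 1 array may be understated.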

Other observations

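Exactly equal values on both arrays were listed for 11 of the 85 genes (12.9%), beside 12.6% of all 17305 genes. They were Col2a1, Col4a3, Col5a2, Col5a3, Col8a2, Col9a2, Col11a1, Col19a1, Col22a1, Lamc3 and Itgb1bp2, with levels between 4.79 and 5.84. For these genes a difference of 0 is a property of the deposited table, and no error can be attached to it.

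Itgam is also named in the annotation of 3 probe sets that carry the ribosomal protein gene Rpl35 as well. Their levels, 11.08 to 11.46 in the graft and 11.26 to 11.61 in the colon, are far from the 5.0 and 4.78 of the probe set annotated to Itgam alone. These probe sets were left out of all values for Itgam.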
